A study of Mus musculus with 6 samples.

Results

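The class III POU genes of the mouse are Pou3f1, Pou3f2, Pou3f3 and Pou3f4, and they were followed here in ear tissue labelled as a knockout of Tbx1 in the mesoderm. Members were the probe sets that the annotation of the array, an Affymetrix chip for the mouse genome, lists under these symbols, 10 of 45101. Of these, 9 were listed with 1 gene (2 for Pou3f1, 3 for Pou3f2, 2 for Pou3f3 and 2 for Pou3f4) and 1 with both Pou3f3 and the transcript 2900092D14Rik. RNA came from otic vesicle, the sac that forms the inner ear, dissected with its periotic mesenchyme at embryonic day 11.5. The 3 Mest-KO arrays held tissue from conditional Tbx1 knockouts made with T-Cre, and the 3 control arrays held tissue from T-Cre conditional Tbx1 heterozygotes. Both labels thus name T-Cre and the loss of at least 1 Tbx1 allele where it acts. The alleles carried in the rest of the tissue are not given in the labels. Each array was a pool of both ears of 3 embryos. T-Cre is driven by the Brachyury gene and acts in mesoderm, and otic epithelium and hindbrain neural tube are not known as its targets.

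Class III POU proteins are transcription factors that bind DNA through a POU-specific domain and a POU homeodomain joined by a linker, classically at the octamer ATGCAAAT, and often together with a SOX protein. Their genes have no introns. Pou3f4, also called Brn4, lies on the X chromosome and is made in periotic mesenchyme and in neural tube, and its loss causes X-linked deafness in humans and mice through defects of the otic capsule and cochlea. Pou3f1 (Oct6) is known for its part in Schwann cells, and Pou3f2 (Brn2) and Pou3f3 (Brn1) for theirs in neural progenitors and, for Pou3f3, kidney. In ears, Tbx1 and Pou3f4 are known to interact genetically during cochlear development.

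RefSeq promoter sequences (GRCm38.p6) were at hand for 3 of the 4 genes and are shown because genes of one class can differ in the sequence at their starts. Each runs from 250 bases before the gene's start to 50 bases after it. Capitals mark CCAAT boxes on either strand, so that a box on the opposite strand reads ATTGG.
Pou3f4: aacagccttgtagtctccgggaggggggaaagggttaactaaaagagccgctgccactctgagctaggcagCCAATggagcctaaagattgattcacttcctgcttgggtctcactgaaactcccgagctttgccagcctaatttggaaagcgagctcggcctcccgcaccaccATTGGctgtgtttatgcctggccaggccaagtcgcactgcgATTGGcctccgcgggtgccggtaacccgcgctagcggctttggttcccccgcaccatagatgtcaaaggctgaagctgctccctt
Pou3f2: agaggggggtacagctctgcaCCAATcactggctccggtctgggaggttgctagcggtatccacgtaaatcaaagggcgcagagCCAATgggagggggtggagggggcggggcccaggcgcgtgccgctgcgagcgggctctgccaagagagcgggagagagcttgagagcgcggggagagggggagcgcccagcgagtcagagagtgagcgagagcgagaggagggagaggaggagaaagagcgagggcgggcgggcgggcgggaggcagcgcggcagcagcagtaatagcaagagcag
Pou3f3: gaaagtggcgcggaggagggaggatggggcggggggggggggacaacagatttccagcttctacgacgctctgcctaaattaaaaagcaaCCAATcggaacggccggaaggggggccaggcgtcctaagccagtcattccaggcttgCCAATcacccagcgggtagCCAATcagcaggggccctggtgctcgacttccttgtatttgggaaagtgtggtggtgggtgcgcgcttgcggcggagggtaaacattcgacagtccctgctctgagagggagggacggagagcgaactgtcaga
The Pou3f4 window is chrX:110814129-110814428 on the plus strand, that of Pou3f2 is chr4:22488317-22488616 on the minus strand, and that of Pou3f3 is chr1:42695518-42695817 on the plus strand. The windows held 3 CCAAT boxes for Pou3f4, 2 for Pou3f2 and 3 for Pou3f3, where 37.4% of 32851 promoter windows of the same length held at least 1. The GC box GGGCGG occurred 5 times for Pou3f2, counting overlapping runs, 1 time for Pou3f3 and 0 times for Pou3f4 (35.7% of all windows held it). The CG dinucleotide occurred 15, 24 and 18 times for Pou3f4, Pou3f2 and Pou3f3, against a median of 7. TATAAA, the T-box half-site AGGTGT and the octamer ATGCAAAT, searched on both strands, were in 0 of these 3 windows (13.6%, 13.7% and 1.74% of all windows held them). These matches describe the letters alone.

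The arrays were alike across genes, with correlations of log2 values of 0.991 to 0.993 within groups and 0.987 to 0.992 between them. Intensities were compared as log2(intensity + 16), which understates differences of dim probe sets, and log2 differences are Mest-KO minus control with the standard error of the limma fit. The targeted gene, Tbx1, read 520.5, 578 and 409.9 in Mest-KO 1, 2 and 3 and 524.5, 567 and 447 in control 1, 2 and 3, a log2 difference of -0.03 ± 0.14. It does not check the labels, since tissue outside the mesoderm keeps Tbx1 and the place of the probes relative to the deleted exons was not used here. The tissue carried markers of both parts named by the labels. The mesenchyme gene Prrx1 read 5870 to 6233 in Mest-KO and 5868 to 6208 in control, and Oc90, which encodes a protein of otoconia made in otic epithelium, read 3049.7 to 3782 in Mest-KO and 2915 to 3378 in control.

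Each class III POU gene had a lower mean in Mest-KO, but by unequal amounts and on different arrays. Over all genes, 12 rose (0.0847%) and 9 fell (0.0635%; limma, Benjamini-Hochberg adjusted p under 0.05), together 0.148% of the 14170 tested. With every array centred on its median, 22 rose and 56 fell. The 4 members were all tested, and 0 of 4 passed. All 4 had a log2 difference below 0, where 46.2% of all genes did. At an unadjusted p under 0.05, 3 of 4 were lower, where 3.24% of all genes were. The groups did not overlap for 1 of 4, Pou3f1, against 5.22% of all genes that were lower without overlap. The median log2 difference was -0.97 over the 4 members and 0.01 over all genes. These shares and medians are descriptive, since the members were chosen with earlier results of these data known. Levels of Pou3f1 and Pou3f2 also ran together over the arrays (r = 0.95), so they are not separate readings. In bulk tissue, fewer cells of a type and less RNA per cell cannot be told apart.

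**Figure D1:**
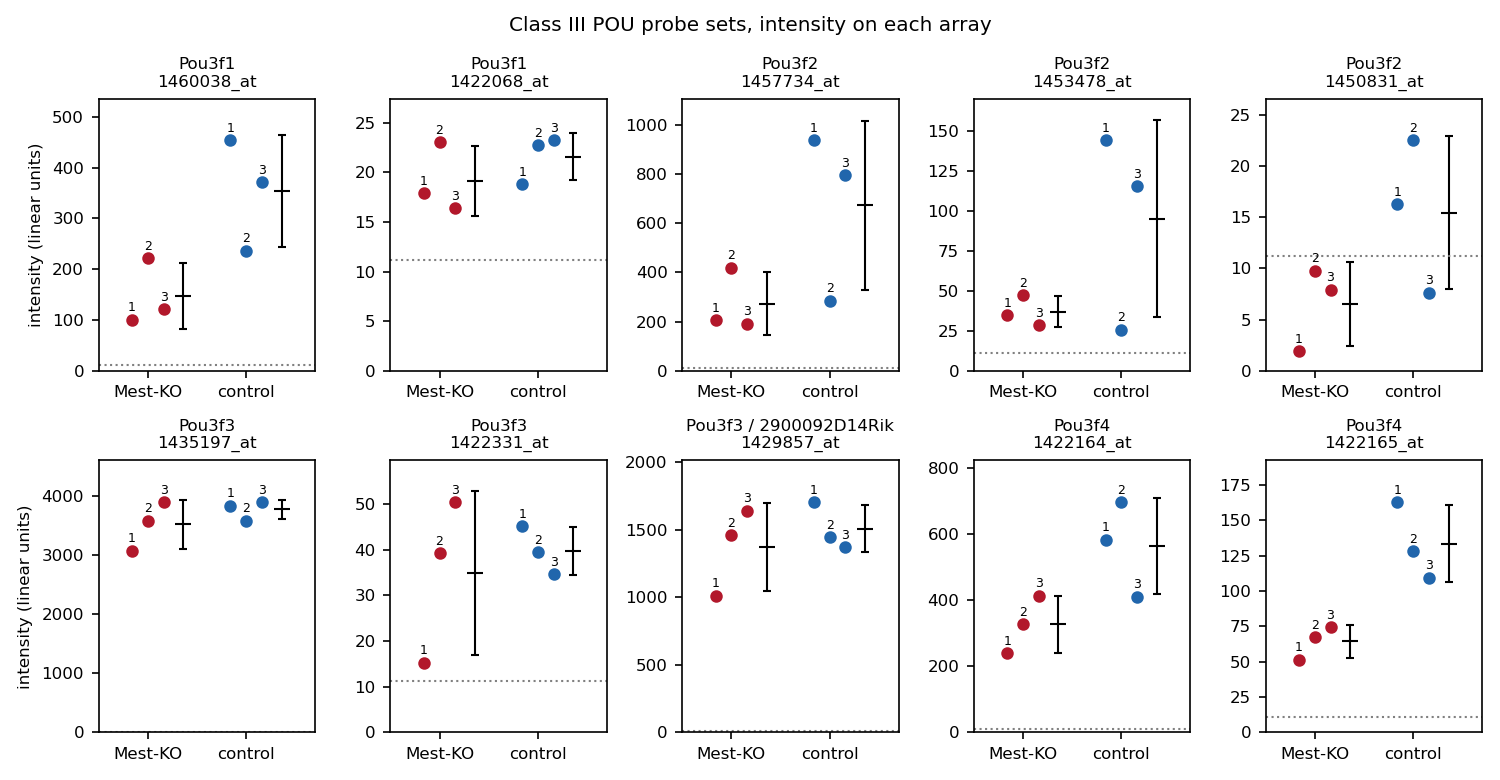
Intensity (linear units) of each class III POU probe set on each array, Mest-KO in red and control in blue, with the array number beside each point, the group mean and SD in black (n = 3) and the highest unspiked control as a dotted line. Both Pou3f4 probe sets had lower means in Mest-KO, 1460038_at, 1457734_at and 1453478_at were high in control 1 and control 3, and the brightest Pou3f3 probe set lay between 3072 and 3896 on all arrays.

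Pou3f4 was lower in Mest-KO on both of its probe sets. The brighter one, 1422164_at, read 240.0, 327 and 414 in Mest-KO 1, 2 and 3 and 584, 698 and 411 in control 1, 2 and 3. The groups met at a single point, since Mest-KO 3 stood just above control 3. Means were 327 ± 87.0 in Mest-KO and 564 ± 145 in control (SD, n = 3 arrays each), so Mest-KO reached 0.580 times the control level. This was a log2 difference of -0.76 ± 0.21 (95% interval, -1.23 to -0.29). It did not pass (limma, p = 0.00470, adjusted p = 0.260; exact permutation p = 0.2), and 254 of the 14170 genes had a smaller p.

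The dimmer Pou3f4 probe set, 1422165_at, names the same source sequence in the annotation, so it is a second reading of 1 transcript and not a separate replicate. It read 51.5, 67.2 and 74.2 in Mest-KO 1, 2 and 3 and 163, 128 and 109 in control 1, 2 and 3. Here the groups did not overlap, as was the case, toward lower values, for 5.71% of the 45037 probe sets. Means were 64.3 ± 11.6 in Mest-KO and 134 ± 27.2 in control (SD, n = 3 each), a ratio of 0.482. On the log2 scale it differed by -0.89 ± 0.20 (95% interval, -1.34 to -0.44; limma over all probe sets, p = 0.00155, adjusted p = 0.392; exact permutation p = 0.1, the smallest that 3 against 3 can give). Within Mest-KO both probe sets put array 1 lowest and array 3 highest. Within control they shared only their lowest array, control 3.

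Pou3f2 had the widest spread among controls. Its brightest probe set, 1457734_at, read 205, 420.1 and 192 in Mest-KO 1, 2 and 3 and 937, 286 and 795 in control 1, 2 and 3. Control 1 and control 3 stood well above all other arrays, while control 2 lay inside the Mest-KO range. Means were 272 ± 128 in Mest-KO and 672 ± 342 in control (SD, n = 3 each). On the log2 scale it differed by -1.18 ± 0.39 (95% interval, -2.05 to -0.31; limma, adjusted p = 0.362; exact permutation p = 0.2). The probe set 1453478_at had the same pattern at a lower level, with 34.8, 47.5 and 28.5 in Mest-KO and 144, 25.8 and 116 in control, where control 2 was the lowest of the 6 arrays (-0.87 ± 0.45, limma adjusted p = 0.648). The probe set 1450831_at lay near background. It read 1.95, 9.77 and 7.91 in Mest-KO, at or below the highest unspiked control probe set (11.2) on all 3 arrays, and 16.2, 22.5 and 7.62 in control. With Mest-KO values set to that limit, the control level was 1.26-fold higher on mean log2 values. This is not a lower bound, since control 3 was also below the limit and was left as read. Control 3 lay below Mest-KO 2, so the groups overlapped (limma, adjusted p = 0.611).

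Pou3f1 followed a like order of arrays. The probe set 1460038_at read 101, 222 and 121 in Mest-KO 1, 2 and 3 and 454, 237 and 372 in control 1, 2 and 3. The groups did not overlap, but Mest-KO 2 and control 2 lay close together. Means were 148 ± 64.9 in Mest-KO and 354 ± 109.6 in control (SD, n = 3 each), a ratio of 0.418. On the log2 scale it differed by -1.20 ± 0.28 (95% interval, -1.80 to -0.59; limma, adjusted p = 0.178; exact permutation p = 0.1). The other Pou3f1 probe set, 1422068_at, did not show it. It read 17.9, 23.0 and 16.4 in Mest-KO and 18.8, 22.7 and 23.2 in control, a difference of -0.10 ± 0.15 at a level close to background (limma, adjusted p = 0.894). With all probe sets of the gene averaged, the Pou3f1 difference was -0.65 ± 0.18.

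Pou3f3 was the steadiest member. Its brightest probe set, 1435197_at, read 3072, 3580.3 and 3896 in Mest-KO 1, 2 and 3 and 3835, 3580.6 and 3891 in control 1, 2 and 3. Only Mest-KO 1 lay outside the control range by more than a few units. Means were 3516 ± 416 in Mest-KO and 3769 ± 165 in control (SD, n = 3 each). The log2 difference was -0.11 ± 0.09 (limma, adjusted p = 0.783, and exact permutation p = 0.6). Its 95% interval, from -0.30 to 0.09, leaves out the Pou3f4 estimate of -0.76 but meets the Pou3f4 interval, which ends at -0.29. The dim probe set 1422331_at read 15.3, 39.2 and 50.5 in Mest-KO and 45.2, 39.5 and 34.7 in control (-0.20 ± 0.28, limma adjusted p = 0.882). The probe set shared with 2900092D14Rik read 1013, 1463 and 1643 in Mest-KO and 1707, 1448 and 1374 in control (-0.16 ± 0.17, limma adjusted p = 0.838). On all 3 of them Mest-KO 1 was the lowest array.

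Across all 10 probe sets, repeated readings of 4 genes on the same arrays, 10 log2 differences were below 0 (49.8% of all probe sets were). At an unadjusted p under 0.05, 4 were lower (3.28% of all probe sets), and 0 passed after adjustment (0.0133% of all probe sets did).

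**Figure D2:**
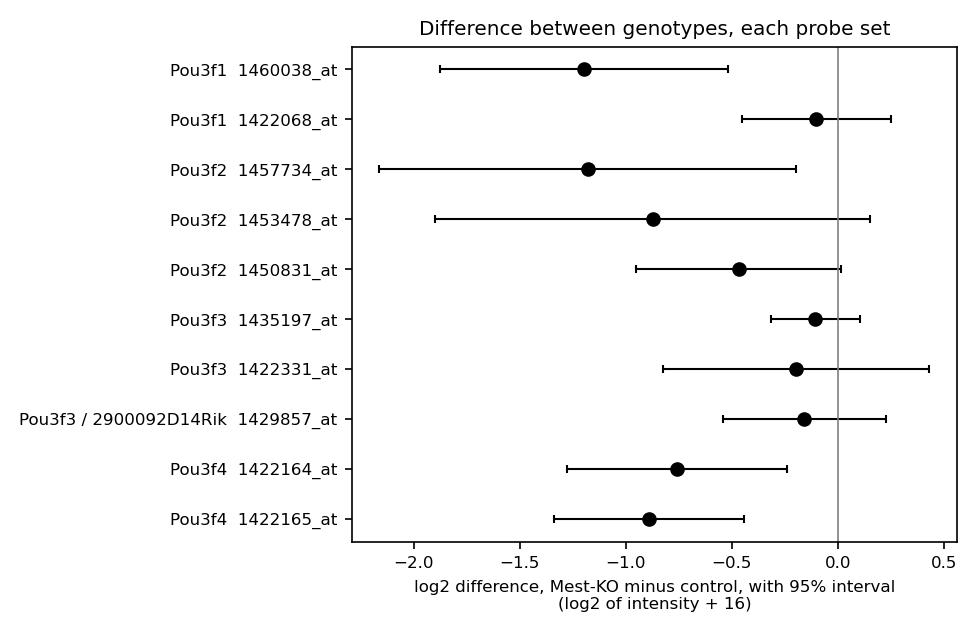
Log2 difference (Mest-KO minus control, log2 of intensity + 16) of each class III POU probe set as a point, with its 95% interval as a bar, from the fit over all probe sets. Intervals of both Pou3f4 probe sets, of 1460038_at for Pou3f1 and of 1457734_at for Pou3f2 lie below 0, and those of the other 6 include 0.

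Whether Pou3f4 differed by another amount than its relatives was tested on the log2 difference between genes within each array. Pou3f4 minus Pou3f3 was -3.59, -3.39 and -3.19 in Mest-KO 1, 2 and 3 and -2.68, -2.33 and -3.19 in control 1, 2 and 3 (KO minus control -0.65, exact permutation p = 0.2). For Pou3f4 minus Pou3f1 the KO minus control value was 0.44 (p = 0.4 in the exact permutation test) and for Pou3f4 minus Pou3f2 it was 0.42 (p = 0.6 likewise). Adjusted over these 3 comparisons each p was 0.6. Against the mean of the other 3 genes the value was 0.07 (exact permutation p = 1). No difference between members was therefore shown, and the smallest p this design allows is 0.1.

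The order of the arrays differed among the members. The hindbrain neural tube list, genes of the tissue that lies beside the ear, had 16 of its 23 genes tested, of which 13 were lower in Mest-KO, 0 passed over all genes, and the median log2 difference was -0.74. Its mean, relative to the 6 arrays, was -0.52, 0.05 and -0.76 in Mest-KO 1, 2 and 3 and 0.73, -0.27 and 0.77 in control 1, 2 and 3 (exact permutation p = 0.2). The summed intensity of the 22 list genes with a probe set ran from 8273 to 11122 in Mest-KO and from 9548 to 12803 in control. Bright genes dominate this sum, above all Zic1, which read 4226 to 6191 over the 6 arrays. Among the 22, 2 genes, Olig2 and Dbx2, read at or below the unspiked controls on all arrays. The 3 list genes with higher values in Mest-KO were Irx3 (0.13 ± 0.15), Gbx2 (0.08 ± 0.16) and Fabp7 (0.04 ± 0.13). Neurog2, which starts neuron formation and had the smallest p of the list, read 37.6, 103 and 48.9 in Mest-KO and 395, 109 and 394 in control. The homeobox gene Lbx1 of dorsal interneurons read 19.0, 91.4 and 21.1 in Mest-KO and 374, 60.6 and 409 in control. Both put Mest-KO 2 and control 2 together, between control 1 and control 3 above and Mest-KO 1 and 3 below.

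Pou3f2 tracked this list closely. Over the 6 arrays Pearson's r with the list mean was 0.99 (exact permutation p = 0.00278, adjusted 0.0111 over the 4 members) and Spearman's rho 0.94 (exact permutation p = 0.0167, adjusted 0.0667). For Pou3f1 r was 0.93 (exact permutation p = 0.0222, adjusted 0.0444) and rho 0.83 (exact permutation p = 0.0583, adjusted 0.117). Pou3f3 gave r = 0.45 and rho = 0.09 (exact permutation p = 0.388 and 0.919, adjusted 0.517 and 0.919), and Pou3f4 gave r = 0.30 and rho = 0.09 (exact permutation p = 0.557 and 0.919, adjusted 0.557 and 0.919). Control 1 and control 3 lay apart from the other arrays on the list mean. Without these 2 arrays r was 0.97 for Pou3f2, 0.80 for Pou3f1, -0.10 for Pou3f3 and 0.08 for Pou3f4, over 4 arrays. These values include the difference between the groups, and the list was chosen with earlier results of these data known. Their p are therefore descriptive and not independent support. For deviations from the group means, pooled over both groups, r with the list mean was 0.98 for Pou3f2, 0.88 for Pou3f1, 0.21 for Pou3f3 and -0.54 for Pou3f4, a description over 6 arrays added after the data were seen.

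**Figure D3:**
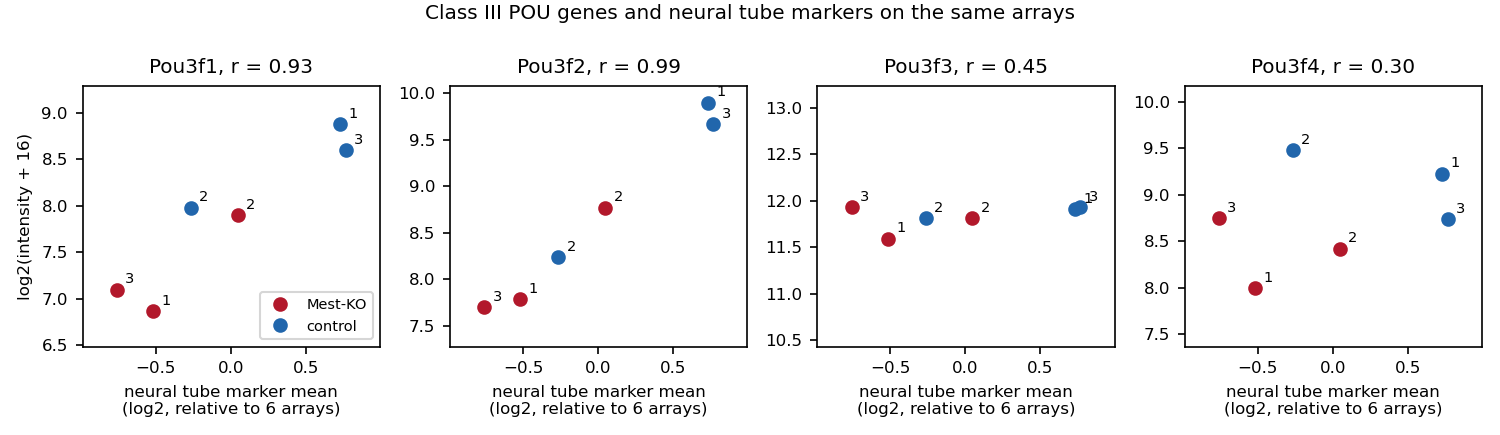
Level of each class III POU gene, as log2(intensity + 16), against the mean log2 level of the neural tube markers relative to the 6 arrays, 1 point per array, Mest-KO in red and control in blue, with array numbers and Pearson's r. Vertical axes span the same range; Pou3f1 and Pou3f2 climb with the markers, while Pou3f4 was highest on control 2, where the marker mean was -0.27.

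When the neural tube mean was added to the model as a term, the log2 difference was 0.03 ± 0.18 for Pou3f2, -0.48 ± 0.24 for Pou3f1, -0.06 ± 0.13 for Pou3f3 and -1.09 ± 0.27 for Pou3f4 (limma, adjusted p = 0.991, 0.762, 0.965 and 0.468). For Pou3f2 a value near 0 follows from its r of 0.99 with this mean, so it adds no separate evidence. The part of neural tube content in these differences was not tested. Leaving out control 1 and control 3, the highest arrays on that mean, draws on the same values. It left 1 control array assumed to vary like the others, and the differences were -0.15 ± 0.36 for Pou3f2, -0.69 ± 0.35 for Pou3f1, -0.03 ± 0.13 for Pou3f3 and -1.09 ± 0.26 for Pou3f4. The single control left there, control 2, had the highest control value of Pou3f4 on 1422164_at and the lowest of Pou3f2. Without control 2 alone, Pou3f4 differed by -0.59 ± 0.22 (limma, adjusted p = 0.351), while Pou3f2 (-1.69 ± 0.27, limma adjusted p = 0.0208) and Pou3f1 (-1.45 ± 0.26, adjusted p = 0.0368) passed. In that fit 82 of the 14170 genes passed, 61 of them lower, against 21 with all arrays.

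The sex makeup of the pools ran alongside. The 3 tested Y-linked genes averaged 0.26, 0.23 and 0.01 in Mest-KO 1, 2 and 3 and -0.49, 0.43 and -0.43 in control 1, 2 and 3, relative to the 6 arrays. Xist, the RNA that silences 1 X chromosome in females, read 1999, 2026 and 1640.5 in Mest-KO and 2859, 1733 and 2830.1 in control. X-linked Pou3f4 was highest in control 2, the control array with the least Xist, on 1422164_at, and in control 1, the array with the most Xist, on 1422165_at. With the Y-linked mean as a term Pou3f4 differed by -0.87 ± 0.24, Pou3f2 by -0.70 ± 0.32 and Pou3f1 by -0.95 ± 0.28 (limma, adjusted p = 0.370, 0.754 and 0.425).

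Markers of the mesenchyme in which Pou3f4 is made differed in both directions. Of 24 genes listed for periotic mesenchyme 23 were tested, and 15 were lower and 8 higher in Mest-KO, with a median log2 difference of -0.05. Among the lower genes, 6 had every Mest-KO array below every control array, where 5.22% of all genes were lower without overlap. Only Meox1, a homeobox gene of paraxial mesoderm, passed, and it rose (1.15 ± 0.18, limma adjusted p = 0.0433). It was higher in Mest-KO in 19 of 19 alternatives and passed in 6 of them. The list mean was -0.15, 0.06 and -0.08 in Mest-KO 1, 2 and 3 and 0.09, 0.05 and 0.02 in control 1, 2 and 3, with overlap (exact permutation p = 0.3). Mest-KO 1, lowest for Pou3f4, Pou3f3 and, on 1460038_at, Pou3f1, was lowest here too. The summed intensity of the list, which bright genes dominate, ran from 30860 to 32956 in Mest-KO and from 33004 to 33931 in control. These ranges were separated by a narrow gap only. On all arrays, 0 of the list genes were at or below the unspiked controls. The part of mesenchyme content in the Pou3f4 difference was not tested. The forkhead genes Foxf1 (-0.96 ± 0.19) and Foxf2 (-0.66 ± 0.16) and the BMP target genes Msx1 (-0.46 ± 0.11) and Msx2 (-0.43 ± 0.10) had lower values without overlap and did not pass (limma, adjusted p = 0.106, 0.195, 0.195 and 0.165). The other 2 lower genes without overlap were Tbx15 (-0.36 ± 0.10) and Prrx2 (-0.30 ± 0.11), named after their values were seen (limma, adjusted p = 0.248 and 0.417). Prrx1, the paralogue of Prrx2, gave 0.01 ± 0.06.

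Genes tied to Pou3f4 in ear mesenchyme, from studies of its mutants or of Tbx1 and Pou3f4 together, had 11 members tested and 0 that passed, with 5 lower and 6 higher in Mest-KO. Epha4, an Eph receptor gene that Pou3f4 is known to activate in otic mesenchyme, read 2676, 2555 and 2651 in Mest-KO and 2850.1, 2547 and 3217 in control (-0.12 ± 0.09, limma adjusted p = 0.737). Efnb2, encoding an ephrin that Epha4 can bind, read 3067, 3437 and 3326 in Mest-KO and 3460.4, 3664 and 4020 in control, without overlap (-0.18 ± 0.08, limma adjusted p = 0.534). Epha4 and Efnb2 were picked after their values were seen. The 4 genes with the smallest p are all known from retinoic acid metabolism. Aldh1a3 (0.43 ± 0.12) and Aldh1a2 (0.45 ± 0.14), encoding enzymes that make retinoic acid, were higher in Mest-KO, Cyp26b1 (-0.65 ± 0.20), encoding one that breaks it down, was lower, and Cyp26a1, another such gene, was higher (0.28 ± 0.12). Their groups did not overlap, which a choice by the smallest p favours. Over all genes, 5.22% were lower without overlap, a share that bears on Cyp26b1 alone. The share of all genes higher without overlap is not given here, so the higher genes have no such measure beside them. The limma adjusted p of these 4 genes ran from 0.263 to 0.532. The other 2 retinoid genes of the list, named after their values were seen, were Aldh1a1 (0.23 ± 0.13, higher without overlap) and the receptor gene Rarb (0.07 ± 0.17), with limma adjusted p of 0.620 and 0.934.

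SOX genes, whose proteins bind DNA beside class III POU factors, did not move together. All 7 were tested and 0 passed. Sox1, of neural progenitors, read 26.4, 59.9 and 12.4 in Mest-KO and 221, 55.8 and 223 in control (-1.83 ± 0.45, limma adjusted p = 0.204). Sox3 read 31.5, 45.2 and 20.5 in Mest-KO and 112, 49.97 and 105 in control (-1.09 ± 0.27, adjusted p = 0.204). Like Pou3f2, both were highest in control 1 and control 3, and both are also on the neural tube list. Sox10, of neural crest, glia and otic vesicle, went the other way, with 2822, 2652 and 2482 in Mest-KO and 1897, 2119 and 1951 in control (0.41 ± 0.08, limma adjusted p = 0.106). Sox2, expressed in both neural tube and prosensory epithelium and chosen after its value was seen, gave 0.003 ± 0.15, and Sox4 gave -0.10 ± 0.07.

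Pou3f1 is also a gene of the Schwann lineage, and markers of that lineage had mostly higher values in Mest-KO without passing. Of 8 tested, 7 were higher in Mest-KO and 1 was lower, 0 passed, and the median was 0.41. Their summed intensity ran from 8899 to 9314 in Mest-KO and from 7493 to 7965 in control. Of 13 tested markers of neurons, 13 were higher in Mest-KO and 0 passed (median 0.19). Of 15 tested otic epithelium markers, 8 were lower and 7 higher, and 0 passed (median -0.04).

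Outside class III, 4 of 11 POU genes were tested, 3 others (Pou2f3, Pou4f3 and Pou5f1) were too dim, and 4 had no probe set of 1 gene name. Pou4f1, a POU factor of sensory neurons, read 2021, 2010.2 and 2061 in Mest-KO 1, 2 and 3 and 1429, 1247 and 1365 in control 1, 2 and 3. It rose by 0.59 ± 0.08 (limma, adjusted p = 0.0256), higher in 3 of 3 arrays, and passed in 8 of 19 alternatives, with a higher value in 19 of 19. Pou2f2 read 30.8, 43.5 and 45.1 in Mest-KO and 76.8, 25.0 and 106 in control (-0.48 ± 0.33, adjusted p = 0.710), Pou5f2 differed by -0.12 ± 0.18 and Pou6f1 by 0.04 ± 0.14.

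**Figure D4:**
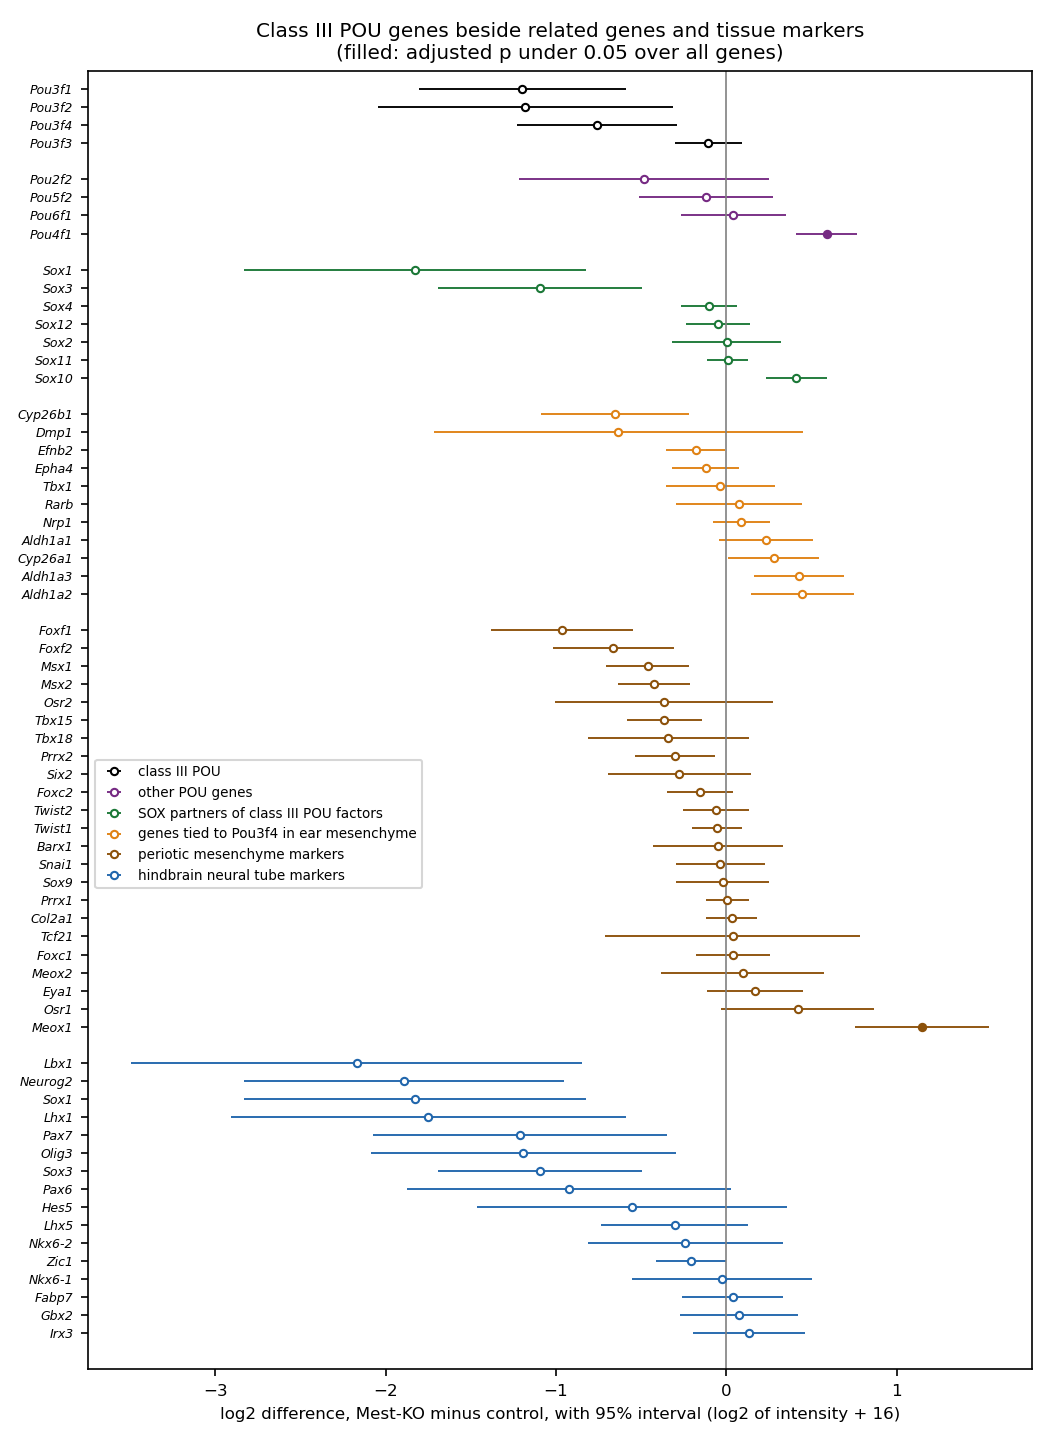
Log2 difference (Mest-KO minus control, log2 of intensity + 16) of the class III POU genes and of 5 gene lists, with 95% intervals; filled points passed at an adjusted p under 0.05 over all genes. Only Pou4f1 and Meox1 are filled. All 4 class III POU genes lie in the wide range of the neural tube markers, from -2.17 (Lbx1) to 0.13 (Irx3). They also lie in that of the SOX genes, from -1.83 (Sox1) to 0.41 (Sox10), so the range does not set the neural tube list apart.

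The genes whose levels were most like each member over the 6 arrays were found by Pearson's r on log2 values, as a description only. For Pou3f4 they were Pappa, encoding a protease that cuts IGF-binding proteins (r = 0.995), Eif1ax, an X-linked translation factor gene (0.992), the transcript A330094K24Rik and Mrpl40, encoding a mitochondrial ribosomal protein (both 0.990). Pappa read 91.3, 113 and 139 in Mest-KO 1, 2 and 3 and 167, 182 and 132 in control 1, 2 and 3, with the same lowest and highest array in each group as Pou3f4. For Pou3f2 they were Mbnl1, Elf5, Lhx1 and Scp2 (0.992 to 0.996), of which Lhx1, a LIM homeobox gene of neural tube interneurons, read 46.3, 114 and 29.7 in Mest-KO and 395, 75.1 and 360.0 in control. For Pou3f1 they were Diras2, Yipf5, Gad2 and Cers3 (0.988 to 0.990). Gad2 encodes an enzyme that makes the transmitter GABA, and read 1.66, 29.7 and 8.25 in Mest-KO and 93.2, 27.8 and 88.4 in control. For Pou3f3 they were Rnf182, H2bc18, Septin10 and H3c7 (0.986 to 0.993). Values of r above 0.95 were reached by 50 genes for Pou3f4, 79 for Pou3f2, 51 for Pou3f1 and 20 for Pou3f3, out of 14170 genes on 6 arrays. Among members, r was 0.95 between Pou3f1 and Pou3f2 and 0.35 to 0.61 for the other 5 pairs.

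**Figure D5:**
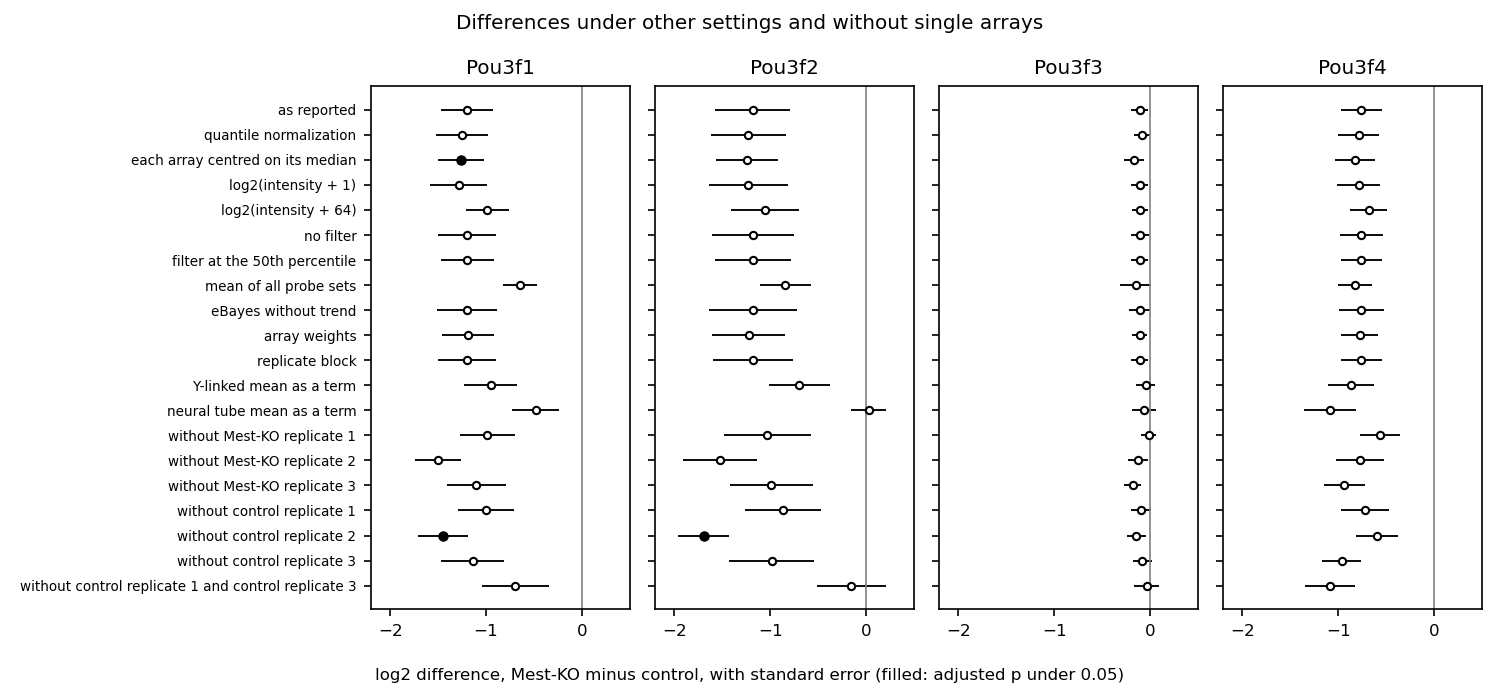
Log2 difference of each class III POU gene (Mest-KO minus control) with its standard error, as reported and under 19 alternatives; filled points had an adjusted p under 0.05. Pou3f4 lies below 0 throughout, from -1.09 to -0.56, Pou3f2 reaches 0.03 with the neural tube mean as a term, and filled points occur for Pou3f1 and Pou3f2 only.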

How the data were processed

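Gene expression was measured on 1-colour Affymetrix mouse genome arrays from 300 ng of total RNA each, per the labels' protocols. The authors deposited linear intensities, and the submitters' processing notes name Expression Console 1.1. How probes were summarized and corrected for background is not given in the sources used here. After trimming 2% at either end, the mean of each array was 500.002. Such scaling hides any shift common to most genes. Background was judged from 27 probe sets for unspiked bacterial transcripts, at most 11.2.

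Groups came from the genotype labels, which describe the arrays as biological replicates. The 64 control probe sets were left out. Probe sets were named through a platform annotation, with the 4 member symbols checked by Entrez ID in RefSeq. For each gene the probe set brightest on average over 6 arrays was used, if it lay above the 30th percentile (14170 of 18193 genes). A second fit took all 45037 probe sets without a filter. The limma model (version 3.58.1, under R 4.3.3) held genotype alone (eBayes with trend, two-sided), with Benjamini-Hochberg adjustment at 0.05. Exact permutation tests were two-sided, and 3 against 3 cannot go below 0.1. The number of arrays limits precision. The fit was tested on simulated data.

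The members and all gene lists were chosen with earlier results of these data known. Genes were named by a fixed rule: all members, the list genes past the threshold or else up to 4 with the smallest p, and the 4 genes most correlated with each member, while others are marked as picked later. Alternatives were other scalings, pseudocounts of 1 and 64, no filter or the 50th percentile, all probe sets averaged, other variance models, a replicate block, covariates, and arrays left out.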

Additional observations from a re-analysis of the deposited data

How the results depend on the processing

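Of 19 alternatives, Pou3f4 kept its direction in 19, its unadjusted p stayed under 0.05 in 19, and its adjusted p ran from 0.121 to 0.660, so it passed in none of those run. Its log2 difference ran from -1.09 to -0.56 over the arrays left out. Pou3f1 passed with arrays centred on their medians (-1.26) and without control 2, and ran from -1.50 to -0.69 over the arrays left out. Pou3f2 passed without control 2, ran from -1.69 to -0.15 over the arrays left out, and changed sign with the neural tube mean as a term (0.029). Pou3f3 kept its direction and did not pass in 19 of 19. Pou3f4 minus the mean of its 3 relatives (0.07) had no stable sign. It was -0.28 with all probe sets averaged and ran from -0.80 to 0.50 over the arrays left out, with -0.18 without Mest-KO 3, -0.07 without control 1, -0.23 without control 3 and -0.80 without both controls. The cause was not tested.

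The count of 21 genes past the threshold was 78 with median centring, 2 without a filter, 6 with all probe sets averaged, 1 without a variance trend, 9 with the replicate block, 5 with the neural tube mean as a term, and 2 to 82 over the arrays left out (82 without control 2).

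Of 160 values of single probe sets, 0 passed and 5 changed sign. These were 1422331_at (0.12) and 1429857_at (0.044) without Mest-KO 1, 1453478_at (0.26) and 1457734_at (0.029) with the neural tube mean as a term, and 1453478_at without control 1 and control 3 (0.32). Over the arrays left out, their log2 differences ran from -0.42 to 0.12 for 1422331_at, -0.30 to 0.044 for 1429857_at and -1.47 to 0.32 for 1453478_at.

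Replicate numbers did not pair the arrays, since deviations from the group means correlated at -0.03, -0.11 and -0.15 for numbers 1, 2 and 3. With the replicate block Pou3f4 stood at -0.76 ± 0.22 (limma, adjusted p = 0.348), Pou3f1 at -1.20, Pou3f2 at -1.18 and Pou3f3 at -0.11, and 0 of 4 calls changed. Over the other scalings and pseudocounts, r between Pou3f2 and the neural tube mean was 0.988 to 0.991. Signal near background limits 1450831_at and 1422068_at.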
